A study of Mus musculus with 13 samples.

Results

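The genes described here encode subunits of the oxidative phosphorylation complexes. They were taken as all rows of the 2 count tables whose identifier maps, in the GENCODE M21 annotation, to a protein-coding symbol of the complex I, II, III, IV or V subunit families. The rule gave 106 of 49315 gene identifiers, of which 93 are nuclear and 13 are encoded by the mitochondrial genome. Its symbol pattern also takes in 8 complex I assembly factors (Ndufaf1 to Ndufaf8), which are not subunits, and the coupling factor gene Atp5s, counted with complex V below, and it misses the complex III gene Cyc1. No measured value entered the rule. Bulk RNA was sequenced from lymph nodes draining a tumour (tdLN) and from the tumours themselves, grown from B16F10, a pigmented mouse melanoma line. There were 3 Foxp3ΔJag1 tdLN (genotype label Foxp3creERT2;Jag1fl), 3 Foxp3Ctrl tumours and 3 Foxp3Ctrl tdLN, and by their library names the control tumours and control nodes come from the same 3 mice. The Cre of Foxp3ΔJag1 mice is driven by Foxp3, which marks regulatory T cells, and deletes Jag1, the gene of the Notch ligand Jagged-1, after tamoxifen. Control mice are WT by their genotype label, while the study's design text gives them the same Cre with floxed Jag1 on 1 allele, and their genotype is not settled here. All mice were female, had 5 doses of tamoxifen (0.1 mg per g) when 6 to 8 weeks old, and were given 200000 tumour cells in matrigel into the skin of the flank after a 9-day washout, at up to 11 weeks. Since cells were not sorted, Foxp3-expressing cells are only part of each library. The 4 Foxp3ΔJag1 tumours in the labels were not analysed here.

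Oxidative phosphorylation passes electrons from NADH and succinate along complexes I to IV of the inner mitochondrial membrane to oxygen, and complex V, the ATP synthase, uses the proton gradient this builds. Complex I oxidises NADH and complex II oxidises succinate, both handing electrons to coenzyme Q, while complex III passes them to cytochrome c and complex IV to oxygen. Apart from complex II, each complex combines subunits translated inside mitochondria from the mitochondrial genome with imported subunits from nuclear genes, so that 2 sets of transcripts serve 1 machine. Several nuclear subunits of complexes IV and V are encoded by more than 1 gene, some of them used mainly in particular tissues.

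Library totals ranged from 32117478 to 44540888 counts, and counts of replicates did not agree within sampling noise. Levels are given as CPM, a gene's share of the library total scaled to 1000000 counts, except where a value is said to be per length of exon. Jag1 was at 27.8, 20.7 and 23.8 CPM in Foxp3ΔJag1 nodes and at 22.0, 23.2 and 24.4 CPM in Foxp3Ctrl nodes, so the labels of the nodes could not be checked on the targeted gene, whose deletion is limited to Foxp3-expressing cells. The tissue labels did match their markers. The 4 B cell markers summed to between 1.61 and 2.58 CPM in Foxp3Ctrl tumours and between 2250 and 2453 CPM in Foxp3Ctrl nodes. The 7 melanoma markers summed to between 17650 and 23070 CPM in tumours and to 10.9, 15.3 and 36.5 CPM in control nodes. Control node replicate 3, the highest, held 282 counts of the melanoma marker Dct, against 0 and 3 in replicates 1 and 2. The B cell and melanoma markers move with the tissue in every comparison of a tumour with a node, and their part in the results was not tested. In bulk RNA fewer cells of a type cannot be told apart from less RNA per cell. By their library names, the replicates of a group are different mice.

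Nuclear members took more of every tumour library than of any node library. The 93 nuclear members summed to 6434, 6598 and 6775 CPM in Foxp3ΔJag1 nodes, to 12065, 13239 and 12390 CPM in Foxp3Ctrl tumours and to 7056, 6719 and 6516 CPM in Foxp3Ctrl nodes. All tumours lay above all nodes, and the nodes of both genotypes overlapped. The 13 mitochondrially encoded members summed to 19395, 17968 and 15719 CPM in Foxp3ΔJag1 nodes, to 12496, 14299 and 15717 CPM in Foxp3Ctrl tumours and to 16491, 16263 and 22552 CPM in Foxp3Ctrl nodes. Here every tumour lay below every control node, though tumour replicate 3 came close to Foxp3ΔJag1 replicate 3. The ratio of mitochondrially encoded to nuclear counts was 3.01, 2.72 and 2.32 in Foxp3ΔJag1 nodes, 1.04, 1.08 and 1.27 in Foxp3Ctrl tumours and 2.34, 2.42 and 3.46 in Foxp3Ctrl nodes. Thus between 1.04 and 1.27 mitochondrial counts were recorded for each nuclear one in tumours, and more than 2 in nodes. These mitochondrial counts come almost wholly from 7 genes. The other 6, whose counts are uncertain as described below, summed to between 4.89 and 15.7 CPM per library. The sums and ratios therefore hold almost nothing of these 6 genes and do not measure the output of the whole mitochondrial genome.

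**Figure D1:**
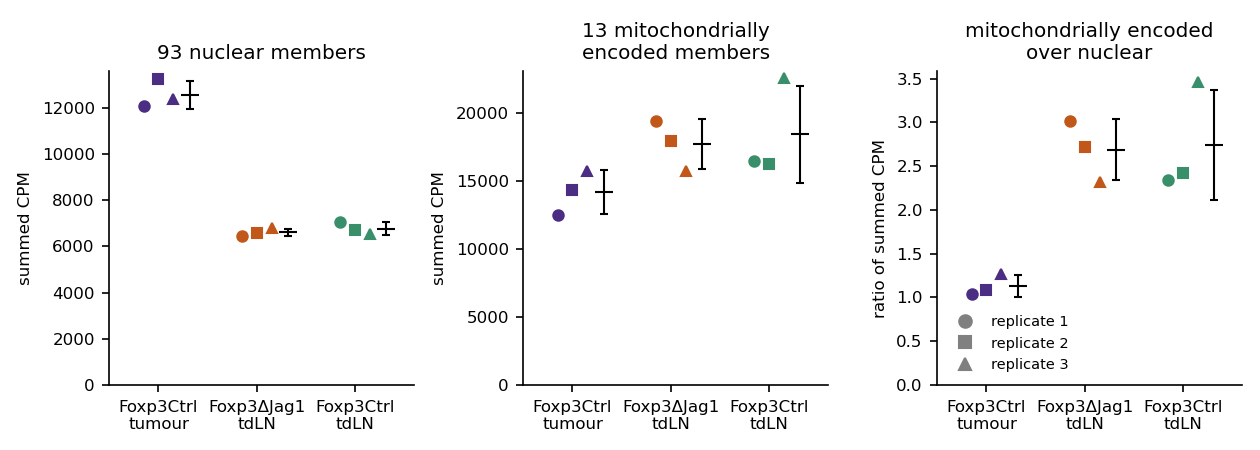
Summed CPM of the 93 nuclear members (left), of the 13 mitochondrially encoded members (middle) and the ratio of the second to the first (right) in each library. Symbols are replicates and the bars are the mean and SD of 3 libraries per group; nuclear sums of Foxp3Ctrl tumours average 12564 CPM, against 6602 CPM in Foxp3ΔJag1 nodes and 6764 CPM in Foxp3Ctrl nodes.

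Per length of exon and over all 9 libraries, mt-Co1, the catalytic subunit of complex IV, was the most abundant member, and the next 6 places also went to mitochondrially encoded genes. The other 6 mitochondrially encoded genes were far lower, but their values are not read as low expression, as described below. By this mean, which pools tumours and nodes, the 2 most abundant nuclear members of each complex were Cox8a and Cox6a1 of complex IV, Atp5a1 and Atp5b, the α and β subunits of the ATP synthase head, Uqcr10 and Uqcrb of complex III, Ndufb11 and Ndufa1 of complex I, and Sdhd and Sdha of complex II. The order differed by tissue: in Foxp3Ctrl tumours Ndufb9 led complex I and Sdhb complex II, and in nodes of both genotypes Ndufb11 led complex I, Sdha complex II and Uqcrh complex III. At the other end, Cox7b2 and Cox8c, isoforms known from testis, had 0 counts in all 9 libraries, where 3 counts would correspond to between 0.0674 and 0.0934 CPM. A further member, Cox8b, was too low to be tested between node genotypes, which left 103 members tested there and 104 between tissues.

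The comparison the study was designed for, Foxp3ΔJag1 against Foxp3Ctrl nodes, showed no member that passed the test. Of 103 members tested with edgeR's quasi-likelihood test, adjusted over all 18440 genes, 0 passed an adjusted p of 0.05, where 0.038% of all genes did, and the smallest adjusted p of any member was 0.953. At an unadjusted p under 0.05 there were again 0 members, against 3.15% of all genes, and DESeq2 called 0 members where it called 0.239% of all genes. The median log2 fold change, Foxp3ΔJag1 over Foxp3Ctrl, was -0.05 over 90 nuclear members and -0.08 over the 13 mitochondrially encoded ones, beside -0.00 over all genes. Without Foxp3Ctrl node replicate 3 the mitochondrial median was 0.14. The estimates lay below 0 for 71 of 103 members and above it for 32, while 48.8% of all genes lay above. The median standard error was 0.08 for nuclear and 0.18 for mitochondrially encoded members, and the estimates of 67 of 103 members lay within 1 standard error of 0.

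Within that narrow range the complexes differed little. Complex III had all 8 members below 0, with a median of -0.10, and the 17 complex V members had 14 below 0 and a median of -0.08. The 36 complex I subunits had a median of -0.03, the 4 complex II subunits of -0.04, the 17 tested complex IV subunits of -0.04 and the 8 complex I assembly factors of 0.02. Ndufc1, an accessory subunit of the membrane arm of complex I, had the smallest p of all members. It was at 12.4, 13.7 and 13.6 CPM in Foxp3ΔJag1 nodes and at 17.4, 13.1 and 16.7 CPM in Foxp3Ctrl nodes, with overlapping groups and a log2 fold change of -0.27 ± 0.13 (SE; edgeR unadjusted p = 0.0698, adjusted p = 0.953). The other members with the smallest p below 0 were mt-Nd4l (-0.50 ± 0.27), Ndufv2 of the complex I flavoprotein (-0.12 ± 0.07), Cox6a2 (-0.64 ± 0.38) and the Rieske iron-sulfur protein gene Uqcrfs1 of complex III (-0.16 ± 0.09). Those above 0 were Sdhb (0.11 ± 0.08), Cox7c (0.07 ± 0.06), Ndufs7 (0.10 ± 0.10), the assembly factor Ndufaf8 (0.15 ± 0.14) and Ndufa5 (0.06 ± 0.08).

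Only 3 members had groups of nodes that did not overlap. Sdhb, the iron-sulfur subunit of complex II, was at 82.0, 83.5 and 86.8 CPM in Foxp3ΔJag1 nodes and at 80.6, 78.9 and 70.7 CPM in Foxp3Ctrl nodes, and was the 1 member to lie wholly higher, where 4.11% of all genes did. Ndufv2 was at 58.3, 61.0 and 63.7 CPM in Foxp3ΔJag1 nodes and at 66.6, 64.8 and 64.4 CPM in Foxp3Ctrl nodes, and Cox5b, which lies outside the rule for this comparison and was chosen after its values were seen, at 101.3, 101.2 and 101.5 CPM against 104.3, 105.9 and 104.5 CPM. These 2 members lay wholly lower, where 3.18% of all genes did. Cox6a2, the heart and skeletal muscle isoform of its subunit, varied among nodes of 1 genotype, at 1.20, 1.27 and 3.28 CPM in Foxp3ΔJag1 nodes against 3.06, 3.14 and 2.65 CPM in Foxp3Ctrl nodes. The summed skeletal muscle markers did not follow it, at 62.8, 59.8 and 61.0 CPM in Foxp3ΔJag1 nodes and 45.7, 48.9 and 61.7 CPM in Foxp3Ctrl nodes. Most of that sum was Eno3, at 42.6, 41.4 and 43.7 CPM in Foxp3ΔJag1 nodes and 31.2, 37.7 and 42.25 CPM in Foxp3Ctrl nodes. Mylpf was at 10.65, 8.45 and 8.98 CPM in Foxp3ΔJag1 nodes and 7.68, 4.95 and 9.79 CPM in Foxp3Ctrl nodes. Atp2a1 and Tnnt3 lay between 1.74 and 5.55 CPM in every node. Acta1, Myh4, Ckm and Actn3 were at most 0.469 CPM in any node. With most of it from Eno3, the sum says little about muscle in nodes, and the part of muscle in Cox6a2 was not tested. Cox8b, the muscle and brown fat isoform in mice, had 25, 0 and 0 counts in Foxp3ΔJag1 nodes and 0, 2 and 39 counts in Foxp3Ctrl nodes. Both nodes with more than 2 counts of Cox8b were also the highest in summed adipocyte markers. These 8 markers summed to 362, 69.2 and 65.2 CPM in Foxp3ΔJag1 nodes and to 74.1, 169.6 and 321 CPM in Foxp3Ctrl nodes. The part of fat tissue in these counts was not tested.

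**Figure D2:**
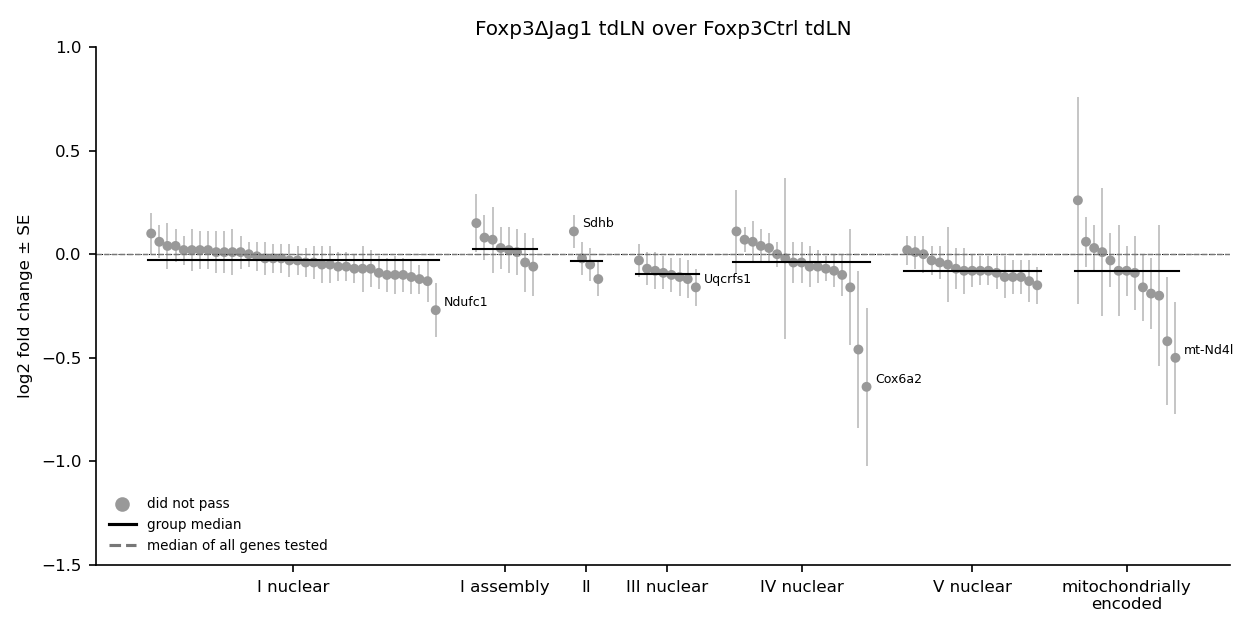
Log2 fold change of each tested member in Foxp3ΔJag1 over Foxp3Ctrl nodes, by complex and ordered within it. Points carry the SE derived from the edgeR test, and the vertical axis is in log2 units. No point passes, and the black lines, the group medians, lie between -0.10 and 0.02.

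Between Foxp3Ctrl tumours and Foxp3Ctrl nodes of the same mice nearly all members differed. Of 104 members tested, 80 rose, where 35.6% of the 18566 genes tested did, and 9 fell, where 37.6% did (edgeR, adjusted p under 0.05). All 80 that rose were nuclear, out of 91 tested. The 9 that fell were 4 nuclear members, all of complex IV, and 5 mitochondrially encoded ones. Among the latter, mt-Nd3, mt-Nd4l and mt-Co3 share their sequence with nuclear copies, and their counts are uncertain, as described below. Without tumour replicate 2 the number of members that fell was 5. The median log2 fold change, tumour over node, was 0.94 for nuclear members, a 1.92-fold difference, and -0.32 for mitochondrially encoded ones, beside -0.05 for all genes. The mitochondrial median was -0.18 without tumour replicate 1 or without node replicate 3. The nuclear median was 0.89 over members that share no stretch of 100 bases with a transcript elsewhere. Groups did not overlap, with the tumours higher, for 82 nuclear members, against 36.5% of all genes, and with the tumours lower for 3, against 41.5% of all genes. Of the nuclear members 28 overlap an exon of a gene on the opposite strand and 33 share at least 1 stretch of 100 bases with another gene, 20 of them with one elsewhere in the genome, and their counts are less certain. The 4 markers of cycling cells rose alongside, with sums between 917 and 948 CPM in tumours and between 316 and 482 CPM in nodes, and the 7 melanoma markers rose with them. The part of either in the members' rise was not tested. Of the 91 nuclear members, 29 were between 2-fold and 3-fold higher, 8 between 3-fold and 4-fold and 4 over 4-fold higher.

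Complex I, the entry point for electrons of NADH, rose almost throughout. Of 36 nuclear subunits 34 rose, with a median log2 fold change of 0.95, including 6 of the 7 nuclear core subunits, which form the electron-transferring arm, and 28 of 29 accessory subunits. Ndufa5, an accessory subunit of the matrix arm (chromosome 6, 24518666 to 24528013), showed the largest rise of all members. It was at 116.3, 127.8 and 119.5 CPM in Foxp3Ctrl tumours against 25.3, 24.6 and 27.2 CPM in Foxp3Ctrl nodes, a 4.91-fold difference (log2 fold change 2.30 ± 0.09 SE, edgeR adjusted p = 4.45e-07). Ndufb9, an accessory subunit of the membrane arm, was at 151.7, 158.1 and 177.3 CPM in tumours and at 45.1, 38.5 and 41.1 CPM in nodes (log2 fold change 2.02 ± 0.11 SE). Ndufb11 and Ndufa1, the most abundant per length in nodes, rose by less, with log2 fold changes of 0.38 ± 0.10 and 0.73 ± 0.12 (SE). Ndufs7, the core subunit that carries the last iron-sulfur cluster before coenzyme Q, did not pass. It was at 61.5, 71.7 and 58.8 CPM in tumours and at 60.6, 70.3 and 61.5 CPM in nodes, ranges that overlapped almost completely (log2 fold change 0.05 ± 0.12 SE, edgeR adjusted p = 0.718). The accessory subunit Ndufa3 had 0.17 ± 0.08 (adjusted p = 0.0806), although its tumours lay wholly above its nodes. Among the 8 assembly factors 5 rose, and Ndufaf1, Ndufaf3 and Ndufaf4 did not pass, with log2 fold changes between -0.11 and 0.28. For Ndufaf2, which rose, 62.4% of 100-base windows also occur in a transcript elsewhere, so its count is less certain.

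All 4 subunits of complex II rose, with a median log2 fold change of 1.19, but by unequal amounts. Sdhb was at 246.5, 263.0 and 264.6 CPM in tumours and at 80.6, 78.9 and 70.7 CPM in nodes (log2 fold change 1.80 ± 0.11 SE, edgeR adjusted p = 3.66e-06). The membrane anchors Sdhc and Sdhd had log2 fold changes of 1.30 ± 0.09 and 1.07 ± 0.11 (SE). Sdha, the flavoprotein that oxidises succinate, was at 293.9, 314.5 and 296.5 CPM in tumours and at 256.6, 269.1 and 241.8 CPM in nodes (0.29 ± 0.10 SE, adjusted p = 0.0331). Its groups did not overlap, but the call was lost without Foxp3Ctrl node replicate 1 (adjusted p = 0.0891) or 3 (0.0924).

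Of 8 nuclear subunits of complex III 7 rose, with a median log2 fold change of 0.96. Uqcrq, a small subunit, was at 192.8, 224.2 and 205.2 CPM in tumours against 61.0, 54.1 and 53.1 CPM in nodes (log2 fold change 1.94 ± 0.11 SE, edgeR adjusted p = 3.06e-06), and Uqcr10, another, at 123.8, 154.4 and 137.6 CPM against 50.2, 45.0 and 41.5 CPM (1.66 ± 0.13 SE). The core protein gene Uqcrc2 did not pass, at 107.5, 109.8 and 101.7 CPM in tumours and 114.4, 102.5 and 102.9 CPM in nodes (0.05 ± 0.09 SE, adjusted p = 0.634). Its partner core protein gene Uqcrc1 rose with 0.67 ± 0.10 (SE); it lies outside the rule for named genes and was chosen after its values were seen. Every tested subunit of complex V rose, 17 of 17, with the lowest median of the complexes, 0.78. Atp5mpl, a small membrane subunit, led with 130.5, 142.4 and 140.8 CPM in tumours and 42.6, 33.0 and 37.4 CPM in nodes (log2 fold change 1.93 ± 0.11 SE). The catalytic head changed less, with 1.06 ± 0.13 for Atp5b and 0.49 ± 0.13 for Atp5a1 (SE). The 3 genes of the proton-carrying c subunit encode the same mature protein, and all rose, with 1.22 ± 0.12 for Atp5g1, 0.97 ± 0.09 for Atp5g2 and 1.53 ± 0.11 for Atp5g3 (SE). Per length, Atp5g3 made up 55.8 ± 1.15% of their sum in tumours and 46.8 ± 1.12% in nodes (SD, n = 3 each). For Atp5g2, 34.7% of 100-base windows also occur in a transcript elsewhere, so its count is less certain.

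**Figure D3:**
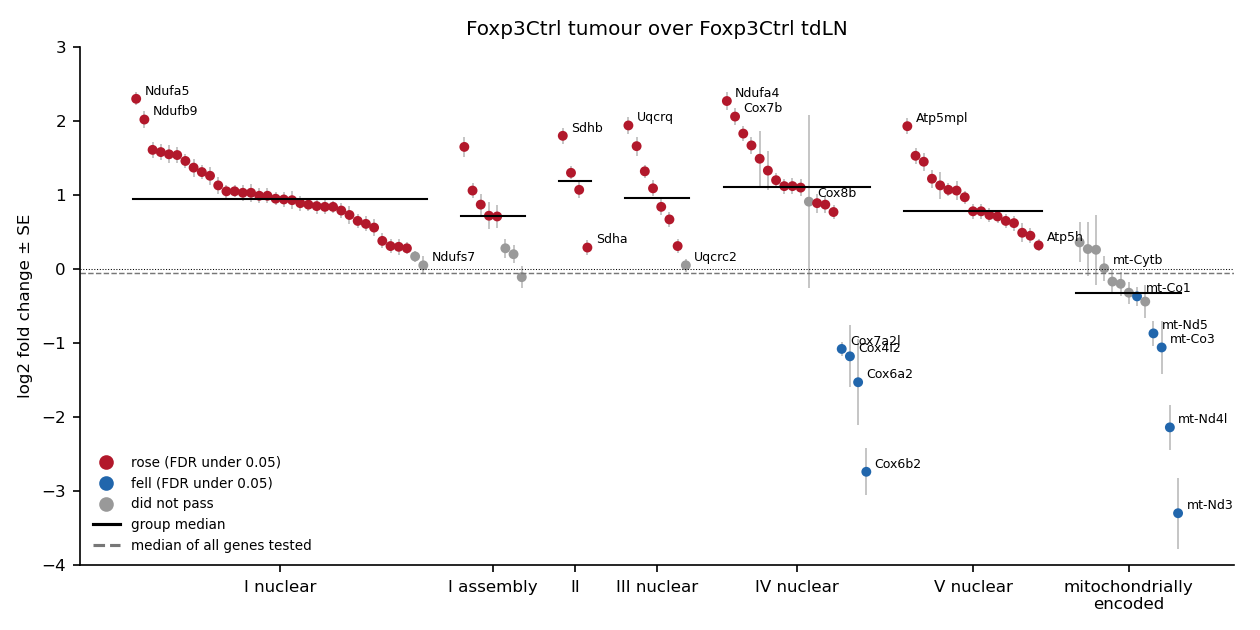
Log2 fold change of each tested member in Foxp3Ctrl tumours over Foxp3Ctrl nodes, by complex and ordered within it. Points carry the SE derived from the edgeR test, and the vertical axis is in log2 units. Nuclear complexes I, II, III and V lie almost wholly above 0, and complex IV has 13 points that rose and 4 that fell. The mitochondrially encoded group holds 5 that fell and 0 that rose. Of those that fell, mt-Nd3, mt-Nd4l and mt-Co3 have uncertain counts.

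Complex IV was the nuclear complex in which members moved both ways, with 13 of 18 that rose, 4 that fell and a median log2 fold change of 1.11. Ndufa4, assigned to complex I at its discovery and now counted as a complex IV subunit, was at 317.2, 348.9 and 375.8 CPM in tumours and at 83.4, 66.2 and 75.4 CPM in nodes (log2 fold change 2.27 ± 0.12 SE, edgeR adjusted p = 1.96e-06). Cox7b was at 228.3, 247.9 and 250.8 CPM in tumours and at 66.0, 53.3 and 61.7 CPM in nodes (2.06 ± 0.11 SE), and Cox5b had 1.67 ± 0.11 (SE). For these members every tumour held at least 2 times the CPM of any node. The ubiquitous forms Cox4i1, Cox6a1, Cox6b1 and Cox8a rose with log2 fold changes of 0.87, 0.89, 0.77 and 1.12.

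The isoforms of complex IV split by gene. Cox7a2l (chromosome 17, 83501918 to 83517330), also known as SCAF1 and a component of supercomplexes of complexes III and IV, fell while its paralogue Cox7a2 rose. Cox7a2l was at 93.5, 92.5 and 102.1 CPM in Foxp3Ctrl tumours against 215.4, 212.3 and 204.5 CPM in Foxp3Ctrl nodes (log2 fold change -1.08 ± 0.09 SE, edgeR adjusted p = 2.29e-05). Cox7a2, the form of most tissues, was at 141.7, 145.3 and 158.6 CPM in tumours against 47.3, 38.2 and 45.2 CPM in nodes (1.83 ± 0.10 SE, adjusted p = 2.53e-06). Per length of exon, Cox7a2l made up 29.7, 28.9 and 29.1% of the pair in tumours and 74.4, 78.0 and 74.3% in control nodes, so the order of the 2 genes was turned round in every library. In Foxp3ΔJag1 nodes the share was 75.3, 74.6 and 75.1%, inside the range of control nodes. Cox7a2l was the only well-expressed nuclear member to fall, since the other 3 were at 5.20 CPM or less in every library.

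The 3 low isoforms that fell are forms known from particular tissues. Cox6b2, a testis isoform, was at 0.453, 0.342 and 0.218 CPM in tumours and at 2.15, 2.35 and 2.68 CPM in nodes (log2 fold change -2.74 ± 0.32 SE, edgeR adjusted p = 0.000117). Cox6a2 was at 0.426, 0.488 and 2.09 CPM in tumours and at 3.06, 3.14 and 2.65 CPM in nodes (-1.53 ± 0.58 SE, adjusted p = 0.0445). The high tumour, replicate 3, also had skeletal muscle markers summing to 316.5 CPM, against 25.3 and 34.9 CPM in the other tumours, and the log2 fold change without it was -2.59. The Cox6a2 call was lost without any other single library (adjusted p between 0.0706 and 0.141), when genes of any count were kept (0.0695) and in a joint fit of 9 libraries (0.0516). Cox4i2, the lung and hypoxia isoform of its subunit, was at 1.86, 1.54 and 1.78 CPM in tumours and at 5.20, 5.02 and 1.78 CPM in nodes (-1.18 ± 0.42 SE, adjusted p = 0.0346). Its groups overlapped through node replicate 3, and the call held without that node (-1.56, adjusted p = 0.000753) but was lost without any other library, at an adjusted p of at most 0.115, with the mouse as a block (0.0619) and with limma-voom (0.0895).

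In the opposite direction, Ndufa4l2, a hypoxia-responsive paralogue of Ndufa4, was at 6.34, 5.39 and 5.11 CPM in tumours and at 1.74, 3.16 and 1.24 CPM in nodes (log2 fold change 1.49 ± 0.37 SE, edgeR adjusted p = 0.00659). Cox7a1, the heart and muscle form, was at 1.60, 1.59 and 1.87 CPM in tumours and at 0.661, 0.789 and 0.620 CPM in nodes (1.33 ± 0.26 SE, adjusted p = 0.00202). Neither isoform exceeded a few CPM, far below Ndufa4 and Cox7a2. Cox8b had 18, 20 and 33 counts in tumours and 0, 2 and 39 in nodes and did not pass (0.91 ± 1.17 SE, adjusted p = 0.506). Without node replicate 3, the node high in adipocyte markers, it had a log2 fold change of 4.55 and an edgeR adjusted p of 0.00291. Tumours were kept in that fit although adipocyte markers summed to 458.5, 430.0 and 83.4 CPM in them, against 320.8 CPM in that node. Tumour replicate 3 was also the one high in skeletal muscle markers, at 316.5 CPM. The part of fat or muscle in Cox8b was not tested.

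**Figure D4:**
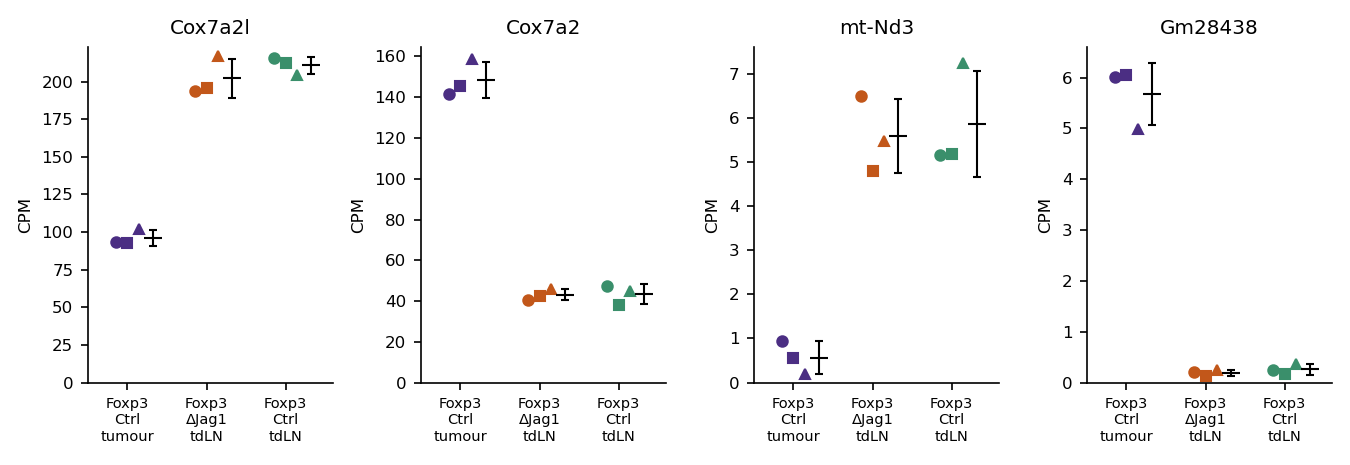
CPM per library of Cox7a2l and its paralogue Cox7a2 (left pair of panels) and of mt-Nd3 and its nuclear copy Gm28438 (right pair). Symbols are replicates and bars the mean and SD of 3 libraries per group. In Foxp3Ctrl tumours Cox7a2l lies between 92.5 and 102.1 CPM and mt-Nd3 between 0.187 and 0.932 CPM, below all nodes, while Cox7a2 and Gm28438 lie above all nodes.

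Promoters of nuclear subunits were compared for motifs of factors known to act on respiratory genes, since 80 members moved together. RefSeq (GRCm38.p6) windows of 300 bases, 250 before to 50 after the start, were matched for 76 of 93 nuclear members. The motif of NRF-1, GCGCA and GCGC with any 1 base between them, on either strand, occurred in 24.7% of the 81 member windows and in 6.38% of 21263 windows of protein-coding genes. The YY1 motif AAGATGGCG occurred in 9.88% against 1.83%, the ERR motif CAAGGTCA in 4.94% against 1.34%, and the GABP motif CCGGAAGT in 6.17% against 5.15%. A match is a run of letters and not a measured binding site. The 3 members with the largest rise among those whose NRF-1 match lies in 100 bases free of exons are set beside Cox7a2l, which had none of the 4 motifs and fell. Ndufa4, Cox7b and Cox7a2, which rose by more than these 3, also had none of the 4 motifs. Each stretch shown is 100 bases on the minus strand, 5′ to 3′, with the NRF-1 match in capitals. That of Cox7a2l, placed by its RefSeq start, lies inside the GENCODE span of the gene (83501918 to 83517330).
Ndufb4, chr16:37654470-37654569: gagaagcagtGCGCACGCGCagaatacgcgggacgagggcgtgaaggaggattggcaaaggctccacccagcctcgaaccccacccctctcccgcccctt
Ndufs5, chr4:123718203-123718302: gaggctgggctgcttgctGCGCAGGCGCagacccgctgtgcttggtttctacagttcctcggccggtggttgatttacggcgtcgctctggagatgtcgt
Cox6a1, chr5:115348986-115349085: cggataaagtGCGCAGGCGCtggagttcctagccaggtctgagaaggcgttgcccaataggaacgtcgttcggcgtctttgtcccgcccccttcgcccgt
Cox7a2l, chr17:83514334-83514433: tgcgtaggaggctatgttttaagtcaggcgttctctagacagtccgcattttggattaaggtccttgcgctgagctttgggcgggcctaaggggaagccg
Of the 19 members with an NRF-1 match 18 rose and 0 fell between tissues, with a median log2 fold change of 0.93, and of the 56 tested members without one 49 rose and 2 fell, with a median of 0.93. These counts are a description and were not tested.

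The mitochondrially encoded members fell into 2 sets by level in every group. The complex I genes mt-Nd1, mt-Nd2, mt-Nd4, mt-Nd5 and mt-Nd6, the complex IV gene mt-Co1 and the complex III gene mt-Cytb lay between 368 and 10230 CPM. The other 6, namely mt-Nd3 and mt-Nd4l of complex I, mt-Co2 and mt-Co3 of complex IV and mt-Atp6 and mt-Atp8 of complex V, lay under 10 CPM in all 9 libraries, with the highest at 7.25 CPM. These transcripts derive from the same long precursors as the abundant ones. Of the 6 low genes, mt-Co2, mt-Atp6, mt-Co3, mt-Nd3 and mt-Nd4l share between 97.6 and 99.9% of their 100-base windows exactly with annotated pseudogenes on chromosome 1 (24611535 to 24616197), a nuclear copy of the mitochondrial genome. The sixth, mt-Atp8, shares 0% with any other annotated transcript, and overlaps mt-Atp6 over 43 bases. Only annotated transcripts were searched, so a copy without annotation would not be seen. On chromosome 1 the copy of mt-Atp6 ends at 24614651 and that of mt-Co2 starts at 24614885. The bases between them, where a copy of mt-Atp8 could lie, were not searched. Among the abundant genes mt-Nd4 shares 60.8% of its windows, mt-Co1 30.8%, mt-Nd2 3.20% and the other 4 share 0%. How reads with more than 1 best position were counted, and whether RNA was selected by poly(A) or depleted of ribosomal RNA, is not given in the sources used here, and the low values of these 6 genes are not read as low expression.

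**Figure D5:**
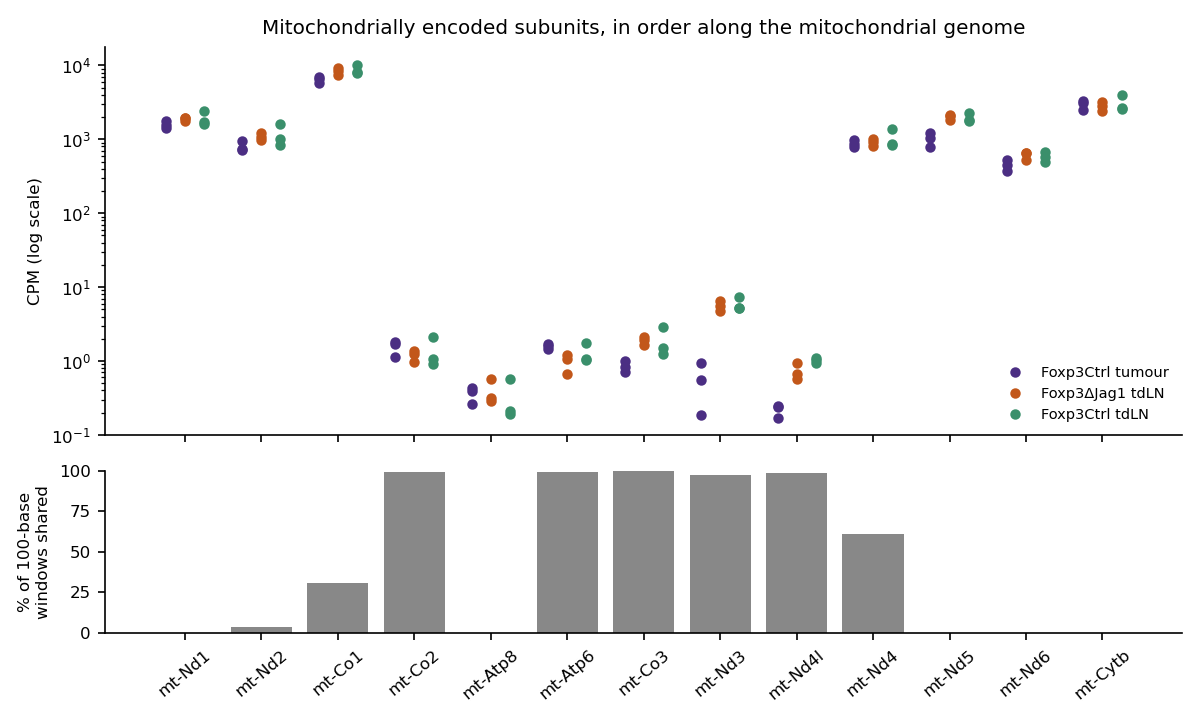
Top, CPM on a log scale of the 13 mitochondrially encoded members in each library, in their order along the mitochondrial genome, with Foxp3Ctrl tumours left, Foxp3ΔJag1 nodes in the middle and Foxp3Ctrl nodes right. Bottom, the percentage of each gene's 100-base windows found in an annotated transcript elsewhere; 5 of the 6 genes under 10 CPM exceed 97%, and mt-Atp8 is at 0%.

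Of the 7 abundant genes, 2 fell in Foxp3Ctrl tumours and 5 did not pass. mt-Nd5, a proton-pumping subunit of complex I, was at 789, 1051 and 1223 CPM in tumours and at 1801, 1744 and 2301 CPM in nodes, with groups well apart (log2 fold change -0.87 ± 0.17 SE, edgeR adjusted p = 0.00232). mt-Co1 was at 5853, 6583 and 6984 CPM in tumours and at 7829, 8144 and 10230 CPM in nodes (-0.37 ± 0.13 SE, adjusted p = 0.0341). The mt-Co1 call held without Foxp3Ctrl node replicate 1 and was lost without any other single library, at an adjusted p of up to 0.157, and with no filter on low counts (0.0807). mt-Nd2 (-0.44 ± 0.22 SE, adjusted p = 0.107) and mt-Nd6 (-0.32 ± 0.15 SE, adjusted p = 0.0820) did not pass in the unblocked fit, but did with the mouse as a block, at -0.41 and -0.33 and adjusted p of 0.0204 and 0.0442. mt-Nd2 also passed without node replicate 2 (-0.61), and mt-Nd6 without tumour replicate 3 (-0.41). mt-Nd6 is the only one of these genes on the light strand, and the strand setting of the counts was not stated. mt-Nd1 had -0.20 ± 0.16, mt-Nd4 -0.17 ± 0.17 and mt-Cytb 0.01 ± 0.17 (SE). mt-Cytb was at 2524, 3091 and 3282 CPM in tumours and at 2688, 2608 and 3947 CPM in nodes, so the 7 genes did not fall alike. The sign of mt-Cytb turned with scaling by library size alone, to -0.06, and in 4 of the other fits. Foxp3Ctrl node replicate 3 had the highest value of all 7 genes among the control nodes, and without it mt-Nd4 had a log2 fold change of 0.03.

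Of the 6 low genes, 3 fell, and each shares its sequence with a nuclear copy. mt-Nd3 showed the largest fall of any member, at 0.932, 0.561 and 0.187 CPM in Foxp3Ctrl tumours against 5.15, 5.18 and 7.25 CPM in Foxp3Ctrl nodes (log2 fold change -3.30 ± 0.48 SE, edgeR adjusted p = 0.000408). Its copy Gm28438 is identical over 345 aligned bases except for 1 mismatch, 99.71% identity. The 60 bases around that mismatch are shown because the 2 genes moved in opposite directions. The stretch lies on the plus strand at chrM:9459-9518 for mt-Nd3 and on the minus strand at chr1:24613060-24613119 for Gm28438 (GRCm38, 5′ to 3′), and the capital is the base at which they differ, position 9461 of the mitochondrial genome.
mt-Nd3: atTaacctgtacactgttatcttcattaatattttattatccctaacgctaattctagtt
Gm28438: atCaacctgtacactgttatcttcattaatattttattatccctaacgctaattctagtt
Gm28438 was at 6.02, 6.05 and 4.98 CPM in tumours and at 0.248, 0.163 and 0.367 CPM in control nodes, and rose with a log2 fold change of 4.52 ± 0.32 (SE, edgeR adjusted p = 7.72e-06). The sum of the pair was 6.95, 6.62 and 5.17 CPM in tumours and 5.40, 5.34 and 7.61 CPM in control nodes, so the summed level overlapped between the tissues. mt-Nd3 held 13.4, 8.49 and 3.61% of the pair's counts in tumours, against 95.4, 97.0 and 95.2% in control nodes and 96.9, 97.5 and 95.7% in Foxp3ΔJag1 nodes. Which base the reads carry was not tested, since only counts were analysed.

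The 2 other low genes that fell did so beside copies with no mismatch. mt-Nd4l was at 0.240, 0.171 and 0.249 CPM in tumours and at 1.02, 0.929 and 1.10 CPM in nodes (log2 fold change -2.14 ± 0.30 SE, edgeR adjusted p = 0.000310). Its copy Gm10222, identical over 294 bases, rose (1.14 ± 0.32 SE, adjusted p = 0.0121). mt-Co3 was at 1.01, 0.830 and 0.716 CPM in tumours and at 1.24, 1.51 and 2.91 CPM in nodes (-1.06 ± 0.36 SE, adjusted p = 0.0267). Its copy Gm28437, identical over 783 bases, had 0.73 ± 0.31 (SE) and did not pass (adjusted p = 0.0602). The mt-Co3 call was lost with the mouse as a block (adjusted p = 0.0622) and without tumour replicate 2 (0.0799), tumour replicate 3 (0.0866) or node replicate 3 (0.0707). Since the sequences of these pairs are the same, how a count was divided within a pair is uncertain. The mt-Co3 pair summed to 3.195, 2.929 and 2.74 CPM in tumours and to 2.368, 2.415 and 4.879 CPM in control nodes, so its groups overlapped. The mt-Nd4l pair summed to 0.7456, 0.7811 and 0.8718 CPM in tumours and to 1.239, 1.161 and 1.466 CPM in control nodes, and remained wholly lower in tumours. mt-Co2, mt-Atp6 and mt-Atp8 had log2 fold changes of 0.27, 0.36 and 0.26 and did not pass.

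Other genes of the mitochondrion were compared in lists kept apart from the members. Between node genotypes, 0 genes of these 6 lists passed with edgeR or DESeq2, and 0 had an unadjusted edgeR p under 0.05. The list medians lay between -0.08 and 0.02. The log2 fold changes with the smallest p, Foxp3ΔJag1 over Foxp3Ctrl, were 0.16 ± 0.07 for the import motor gene Timm44, -0.21 ± 0.10 for Mrpl16 and -0.22 ± 0.11 for the chaperonin gene Hspd1 (SE; edgeR adjusted p = 0.953 each). Coq2, Coq6, Cox11, Ssbp1, Polg2 and Mrpl23 had values between 0.12 and 0.25, and Tmem70, Fh1 and Suclg1 between -0.13 and -0.12. Between tissues, all 18 genes of mitochondrial mass and import rose, with a median log2 fold change of 1.05. Vdac1, the outer membrane channel, was at 768, 945 and 652 CPM in tumours and at 119.5, 121.8 and 111.5 CPM in nodes, and Slc25a4, the ADP/ATP carrier, at 645, 824 and 805 CPM against 144.2, 137.3 and 138.0 CPM. Of 78 mitochondrial ribosomal protein genes 60 rose and 1 fell, with a median of 0.67, led by Mrpl13 (1.95 ± 0.09 SE) and Mrps25 (2.19 ± 0.12 SE). Of 13 genes of the tricarboxylic acid cycle 10 rose and 1 fell, with a median of 0.84 and Suclg2 (1.89 ± 0.09 SE) and Idh3a (1.65 ± 0.13 SE) in front. The shares that rose in these 3 lists lie above the 35.6% of all genes.

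Among electron carriers and coenzyme Q synthesis genes 12 of 17 rose and 0 fell, where 35.6% of all genes rose and 37.6% fell. Cycs, the gene of cytochrome c, which carries electrons between complexes III and IV, was at 232.6, 254.2 and 239.9 CPM in tumours and at 50.1, 45.6 and 46.8 CPM in nodes (log2 fold change 2.41 ± 0.10 SE), and Coq7 had 1.89 ± 0.15 (SE). Of 38 tested assembly factors of complexes II to V and further complex I factors 24 rose and 5 fell, beside the same shares of all genes, with Uqcc2 of complex III at 1.79 ± 0.09 and Cox14 of complex IV at 1.44 ± 0.09 (SE). The median of that list, 0.55, was below that of the subunits they assemble.

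Genes of mitochondrial biogenesis and mitochondrial genome expression moved both ways: of 19, 4 rose and 8 fell, where 35.6% of all genes rose and 37.6% fell, with a median log2 fold change of -0.26. The share that fell is near that of all genes. Ppargc1a, the coactivator known to induce respiratory genes, rose most, at 45.4, 38.8 and 61.6 CPM in Foxp3Ctrl tumours against 1.57, 1.16 and 2.20 CPM in Foxp3Ctrl nodes (log2 fold change 4.96 ± 0.26 SE, edgeR adjusted p = 2.31e-06). Ssbp1, the mitochondrial single-stranded DNA-binding protein, rose with 0.98 ± 0.09 (SE). Twnk, the helicase that unwinds mitochondrial DNA, rose with 0.74 ± 0.12 and Tfb1m with 0.72 ± 0.17 (SE). Those that fell were Tfam, which packages mitochondrial DNA and starts its transcription (-0.64 ± 0.09), the mitochondrial RNA polymerase gene Polrmt (-0.72 ± 0.12), the DNA polymerase genes Polg (-0.55 ± 0.08) and Polg2 (-1.02 ± 0.17), Mterf1a (-0.69 ± 0.19), Mterf3 (-0.71 ± 0.13), Gabpa (-0.34 ± 0.11) and Gabpb1 (-0.64 ± 0.11, SE). Nrf1, the factor of the motif counted above, had -0.11 ± 0.09 (SE, adjusted p = 0.265) and did not pass. Apart from Ppargc1a, Ssbp1 and Polg2, these genes were named after their values were seen, and all 12 that passed are given.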

How the data were processed

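Each table holds raw counts, whole numbers of reads assigned to a gene as deposited by the authors, 1 table for nodes and 1 for tumours. Trimmomatic 0.36, STAR 2.5.2b, featureCounts (Subread 1.5.2) and GRCm38 are named in the submitters' processing notes; settings for strand and for reads with several positions were not stated. Per the labels' protocols the RNA integrity number was over 9, and all samples carry batch 1. Of 12 columns 9 were used; the names of the other 3 match no labelled sample.

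The members and lists were chosen with earlier results of these data known. Of 49315 identifiers, 49056 matched GENCODE M21, the source of symbols, positions and exon lengths. All genes were fitted in R 4.3.3 with edgeR 4.0.16 (quasi-likelihood, TMM, filterByExpr, robust) and adjusted after Benjamini-Hochberg, with calls at 0.05, for the 6 nodes and, apart from these, for the 3 tumours with the 3 control nodes. By library names, tumour and control node of a replicate number share a mouse; their deviations from group means correlated at -0.0827, 0.127 and -0.00272. Named were the mitochondrially encoded members, complex II, isoforms, the 5 smallest p per direction between genotypes, the 10 largest rises and falls between tissues, the 2 most abundant members per complex and the 2 smallest p per further list. Alternatives were DESeq2 1.42.0, its size factors, limma-voom (limma 3.58.1), library size only, other filters, a joint fit, the replicate block, an adjusted p of 0.01, leaving out mitochondrial rows and leaving out each replicate. Standard errors were derived from the edgeR test, as the absolute log2 fold change divided by the square root of its F statistic. Levels per length divide counts by the union of exons. Windows of 100 bases of each transcript were matched exactly to all other M21 transcripts. The fit was tested on simulated data. The edgeR p-values rest on the spread among the 3 libraries of each group, pooled over both groups and moderated with the spread of all genes tested. Between tissues, by library names, both groups come from the same 3 mice, and the main fit had no block. The limit of 3 counts covers counting error only.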

Additional observations from a re-analysis of the deposited data

How the results depend on the processing

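No member was called between node genotypes in any of the 16 alternatives, the replicate block included (0 calls; these replicate numbers mark different mice, with correlations of -0.165, 0.034 and -0.124). The node median of nuclear members was between -0.07 and -0.01 with single libraries left out, -0.01 being without Foxp3Ctrl node replicate 1, and that of mitochondrially encoded members between -0.17 and 0.14. Between tissues, the number that rose stayed between 73 and 83. The number that fell, 9, was 5 at an adjusted p of 0.01 and between 5 and 7 with single libraries left out, 5 without tumour replicate 2. The nuclear median of 0.94 was 0.89 with library size only, where the median of all genes moved to -0.106 (main -0.048), 0.99 in the joint fit, 0.89 without members that share a 100-base window, an alternative chosen after seeing the data, and between 0.89 and 1.00 with single libraries left out. With the mouse as replicate block 80 rose and 9 fell, and apart from the 4 calls named in the report no call of a named member changed. mt-Cytb, at 0.01, was -0.06 with library size only, -0.03 with a CPM of at least 1 in 3 libraries and between -0.07 and 0.17 with single libraries left out, and mt-Nd4 between -0.27 and 0.03. Over all genes, the nodes gave 7 calls, 44 with DESeq2, 16 with no filter or without Foxp3ΔJag1 node replicate 2, 11 with the replicate block and 21 without Foxp3Ctrl node replicate 3, where 3175 genes had an unadjusted p under 0.05 against 581. In refits of single members between tissues, 622 values kept direction and call, 26 lost the call, 5 gained it and 6 changed sign. The cause of these changes was not tested. At this depth, members of a few CPM and the shared mitochondrial sequences carry the widest errors.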
